A study of Mus musculus with 6 samples.

Results

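The enzymes examined here were those of the mitochondrial tricarboxylic acid cycle other than succinate dehydrogenase, given as 9 genes, Cs, Idh3a, Idh3b, Idh3g, Ogdh, Dlst, Suclg1, Fh1 and Mdh2. They were chosen by gene symbol, and all 9 were found among the 55376 genes of the deposited table. Whole retinas of 3 wild-type (WT) and 3 Wfs1-/- (Wfs1-KO) mice had been analysed by RNA-seq at postnatal day 240. The labels give the strain as C57x129 for both genotypes, while the methods name a C57BL/6 J background. The mutant mice carried a targeted deletion of exon 8 of Wfs1 in every tissue, so the comparison is of a constitutive loss and not of a loss in one retinal cell type.

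The cycle oxidizes the acetyl group of acetyl-CoA, made from pyruvate or fatty acids, to carbon dioxide and passes the electrons to NADH and FADH2 for oxidative phosphorylation. Its enzymes lie in the mitochondrial matrix, except for succinate dehydrogenase, which is also a complex of the respiratory chain in the inner membrane. Photoreceptors are rich in mitochondria, packed in the ellipsoid of the inner segment, and variants of the human genes for NAD-dependent isocitrate dehydrogenase (IDH3A and IDH3B) are a known cause of retinitis pigmentosa. The study asked which transcripts differ between mutant and control retinas before the retina degenerates, and its wider question was the supply of energy metabolites to retinal neurons.

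The targeted gene was examined first. Wfs1 had 64.9, 61.4 and 69.9 CPM (counts scaled to library size) in WT replicates 1, 2 and 3, and 9.63, 0.900 and 11.5 CPM in Wfs1-KO replicates 1, 2 and 3, so that the genotypes did not overlap. Its log2 fold change (Wfs1-KO minus WT) was -3.15, with SE (the standard error) 0.77 and an adjusted p of 0.979 in edgeR's test over all genes, and -2.64 (SE 0.16, adjusted p = 2.84e-05) without Wfs1-KO replicate 2. Total counts ranged from 17916885 in WT replicate 3 to 101334381 in Wfs1-KO replicate 1, and each cycle gene had between 1003 and 25476 counts in each retina. Rod genes were the most abundant of the marker lists in all 6 retinas, with a summed level of 7 genes between 50689 and 72991 CPM. Wfs1-KO replicate 2 stood apart, with a mean Pearson correlation of log2 CPM to the other 5 retinas of 0.937 across genes, against 0.978 to 0.981 for each of the others. It held 480 CPM of blood genes (12.3 to 41.2 in the other retinas, 5 of 5 genes highest), 378 CPM of pigment epithelium genes (46.2 to 159, 4 of 7 highest) and 59.2 CPM of microglia genes (12.1 to 18.4, 3 of 4 highest). Of its pigment epithelium sum, 234 CPM came from Ttr. Its Rpe65 (20.8 CPM) and Best1 (1.14 CPM) lay inside the WT range and its Lrat (4.59 CPM) below it. Wfs1-KO replicate 2 also had the lowest rod sum, with 4 of 7 rod genes at their lowest and 2 at their highest. The rod sum was below every WT retina (65243 to 72991 CPM) in all 3 mutant retinas, at 64859, 50689 and 65214 CPM in Wfs1-KO replicates 1, 2 and 3. No gene of these lists was at 0 in all retinas. The part of these cells in the results was not tested, and the tests of the cycle genes are therefore also given without that retina.

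The promoters of the cycle genes were read next, because the genes sit on different chromosomes and yet encode one pathway. RefSeq promoter windows (GRCm38.p6, from 250 bases before to 50 after the start of transcription) were found for 8 of the 9 genes, in 13 windows, and not for Idh3a. The 250 bases before the start are printed 5′ to 3′ for Cs, the enzyme of the first step, at chr10:128337477-128337726 (plus strand), and for Fh1, the cycle gene with the lowest level, at chr1:175625636-175625885 (minus strand). Both windows lie outside the annotated span of their own gene, and both hold the motif most frequent among the cycle genes. Capitals mark this motif, the CCAAT box, which reads ATTGG where it lies on the other strand.
Cs: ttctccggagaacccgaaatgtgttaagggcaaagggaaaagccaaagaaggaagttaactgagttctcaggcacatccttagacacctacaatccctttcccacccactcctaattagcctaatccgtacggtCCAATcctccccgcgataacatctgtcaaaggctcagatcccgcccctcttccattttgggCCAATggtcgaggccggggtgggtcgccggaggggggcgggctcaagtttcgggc
Fh1: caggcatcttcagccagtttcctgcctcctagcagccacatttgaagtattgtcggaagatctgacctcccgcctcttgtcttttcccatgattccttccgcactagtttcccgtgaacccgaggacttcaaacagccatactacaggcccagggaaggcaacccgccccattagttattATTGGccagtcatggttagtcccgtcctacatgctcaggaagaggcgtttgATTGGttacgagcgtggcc

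Each window thus holds 2 CCAAT boxes, and in Cs they lie on the strand of the gene and in Fh1 on the other. Over the full windows of the 8 genes the CCAAT box was in Cs, Fh1, Idh3b and Ogdh (4 of 8 genes), against 37.4% of all 32851 promoter windows. The motif of NRF1 (GCGCNTGCG), a factor known for its role in mitochondrial gene expression, was in Idh3g and Ogdh (2 of 8, 6.31% of all windows). The ETS-type motif (CCGGAAG) was in Dlst, Idh3b and Idh3g (3 of 8, 8.86% of all windows). The motif of the estrogen-related receptors (AAGGTCA) was in Ogdh alone among the 8 (4.72% of all windows), the YY1 motif (AAGATGGCG) in Idh3g alone (1.40%), and the cyclic AMP response element (TGACGTCA) in Mdh2 and Ogdh (1.79%). All motifs were searched on both strands and do not overlap in letters with each other in Cs or Fh1. The counts above are of genes, while the shares over all windows are of windows. Of the 13 windows, the CCAAT box was in 9, the NRF1 motif in 3 and the ETS-type motif in 3. The cyclic AMP response element was in 4, the motif of the estrogen-related receptors in 1 and the YY1 motif in 1. Ogdh has several windows, some of which overlap, and so had more bases searched than the others. These are matches of letters and not evidence of binding.

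Levels between genes were compared per exon length, as RPKM (CPM divided by exon length in kilobases). All 9 genes were well expressed. In WT their mean RPKM lay between the percentiles 84.0 (Fh1) and 98.7 (Mdh2) of the 18547 tested genes. Mdh2, malate dehydrogenase, which regenerates oxaloacetate at the end of the cycle, had the highest level, with 188, 152 and 156 RPKM in WT replicates 1, 2 and 3 and 164, 255 and 156 RPKM in Wfs1-KO replicates 1, 2 and 3. Fh1, fumarase, had the lowest, with 25.2, 21.1 and 21.6 RPKM in WT and 22.0, 28.7 and 22.5 RPKM in Wfs1-KO. The order in WT was Mdh2, Idh3b, Idh3g, Cs, Idh3a, Ogdh, Suclg1, Dlst and Fh1. Of the 8 neighbouring pairs in this order, Mdh2 and Idh3b, Cs and Idh3a, Ogdh and Suclg1, and Dlst and Fh1 did not overlap in the 3 WT retinas, while the ranges of the other 4 pairs did. Exon length is the union over the annotated transcripts of a gene, so a level is understated where a long exon is rarely used.

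**Figure D1:**
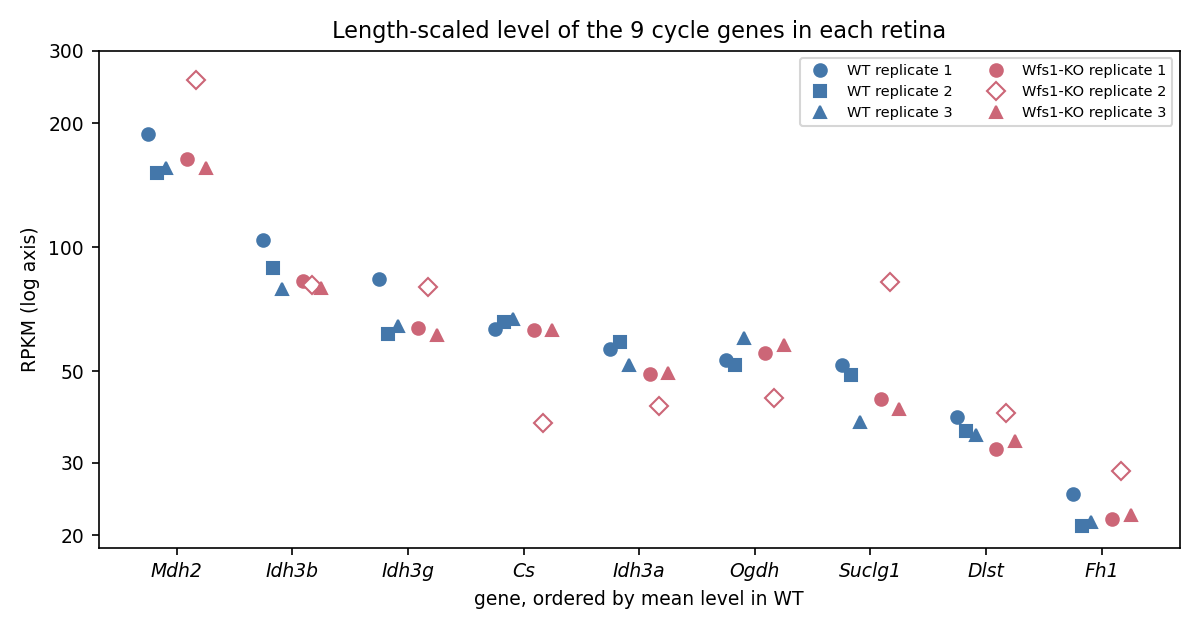
Length-scaled level (RPKM, log axis) of each cycle gene in each retina, one symbol per retina, with WT in blue and Wfs1-KO in red. Mdh2 lies above the other 8 genes in every retina, and the open diamond, Wfs1-KO replicate 2, departs from the other mutant retinas at Cs, Suclg1 and Mdh2.

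None of the 9 genes passed the test between genotypes. The sum of the 9 was 1376, 1251 and 1250 CPM in WT replicates 1, 2 and 3 (mean 1293 ± 72.1, SD, n = 3) and 1229, 1328 and 1222 CPM in Wfs1-KO replicates 1, 2 and 3 (mean 1259 ± 59.1, SD, n = 3). Wfs1-KO replicates 1 and 3 lay below every WT retina and replicate 2 lay inside the WT range. In edgeR's quasi-likelihood test, adjusted after Benjamini and Hochberg over all 18547 tested genes, 0 of 9 had an adjusted p under 0.05 and 0 had an unadjusted p under 0.05, against 0.0108% and 2.81% of all tested genes. DESeq2 also called 0 of 9, against 0.28% of all tested genes, and adjusted p-values in edgeR's test were between 0.979 and 0.986. The median log2 fold change (Wfs1-KO minus WT) was -0.05 over the 9 genes and 0.02 over all tested genes, with 6 genes below 0 and 3 above. Without Wfs1-KO replicate 2, 0 of 9 passed and 0 had an unadjusted p under 0.05 (0.125% and 5.19% of the 19178 genes tested), and the median was -0.15, with 8 genes below 0.

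The size of a difference that the data leave possible is given by the intervals. With all 6 retinas the 95% intervals of the fold change (Wfs1-KO over WT) had bounds between 0.570 for Cs and 1.96 for Suclg1, and 9 of 9 held no change. Without Wfs1-KO replicate 2 the bounds were between 0.697 for Idh3g and 1.25 for Ogdh, again with 9 of 9 holding no change, and the standard error was smaller for 9 of 9 genes. A p that misses the threshold does not show that the genotypes are equal. In whole retina, fewer cells of a type and less RNA per cell cannot be told apart.

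**Figure D2:**
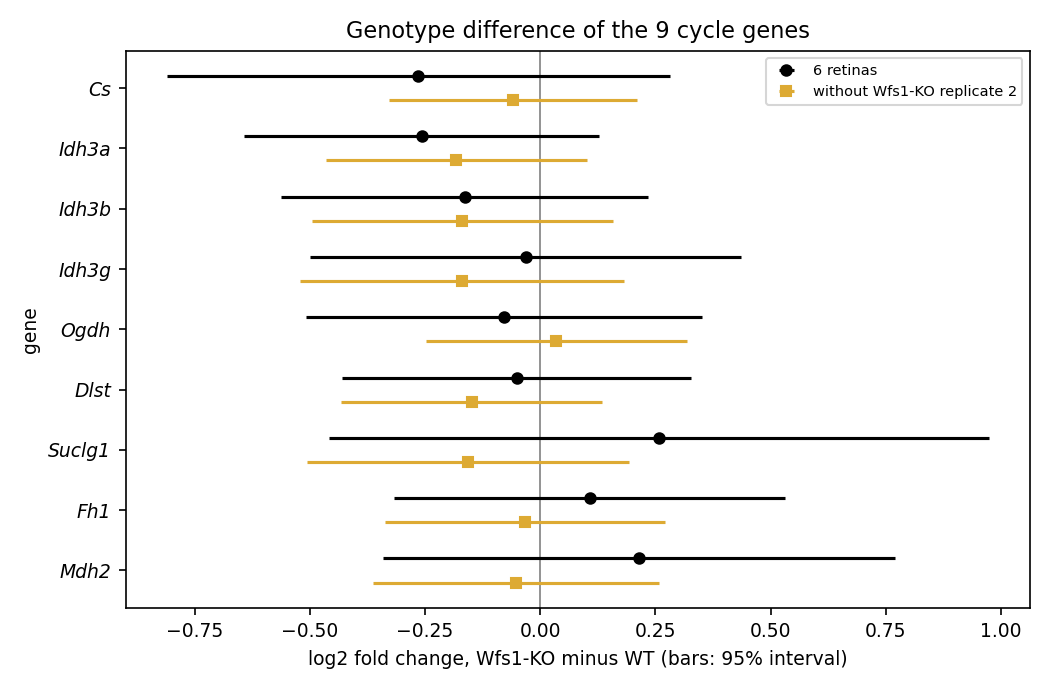
Log2 fold change (Wfs1-KO minus WT) of each cycle gene with its 95% interval, for all 6 retinas (black circles) and without Wfs1-KO replicate 2 (yellow squares). All intervals cross 0, and those without that retina are narrower, lying within the fold bounds 0.697 and 1.25.

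Cs encodes citrate synthase, which joins acetyl-CoA to oxaloacetate in the first step of the cycle. It had 186, 192 and 196 CPM in WT replicates 1, 2 and 3, and 184, 109 and 185 CPM in Wfs1-KO replicates 1, 2 and 3. The genotypes did not overlap, but Wfs1-KO replicates 1 and 3 lay within 2 CPM of the lowest WT retina, and only replicate 2 lay far below. The log2 fold change was -0.26 (SE 0.23), and -0.06 (SE 0.12) without that retina. Among its copies in the annotation, Csl and the processed pseudogene Gm48254 match Cs at over 90% identity, but neither had more than 10 counts in a retina. No such copy was found for the other 8 genes.

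The NAD-dependent isocitrate dehydrogenase, a rate-controlling enzyme of the cycle, is built from a catalytic subunit encoded by Idh3a and from the subunits encoded by Idh3b and Idh3g. Idh3a (chromosome 9 of mm10, 54586334 to 54604661) had 146, 152 and 133 CPM in WT and 127, 106 and 128 CPM in Wfs1-KO retinas, in the order of the replicate numbers. It was below every WT retina in every mutant retina, and the means were 144 ± 9.54 CPM for WT and 120.4 ± 12.1 CPM for Wfs1-KO (SD, n = 3 each). The fitted log2 fold change of Idh3a was -0.26 (SE 0.16), and -0.18 (SE 0.13) without Wfs1-KO replicate 2. Of the cycle genes, Idh3a and Cs were the 2 with every mutant retina below every WT retina, an arrangement found in 3.94% of all tested genes, and 0 had every mutant retina above (5.01% of all tested genes). Both kept this arrangement with RLE and upper-quartile scaling. Without Wfs1-KO replicate 2 there were 3, Cs, Idh3a and Dlst, against 11.4% of the genes tested, and 0 with both remaining mutant retinas above every WT retina (11%).

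Idh3b had 169, 144 and 128 CPM in WT and 134, 131 and 129 CPM in Wfs1-KO retinas. Its spread was larger among WT than among mutant retinas, and the mutant values lay inside the WT range. Its log2 fold change was -0.16 (SE 0.17), and Idh3b shares 5 exonic bases with Nop56 on the opposite strand, the one exonic overlap with another gene among the 9. Idh3g had 112, 82.1 and 85.8 CPM in WT and 84.8, 107 and 81.7 CPM in Wfs1-KO retinas, with 1 high retina in each genotype and a log2 fold change of -0.03 (SE 0.20). Idh3g lies on the X chromosome (73778963 to 73786897), and WT replicate 3, which had 4 counts of Xist and 1137 of Ddx3y against at least 10583 and at most 2 elsewhere, was the one male. Its Idh3g level lay between those of the other WT retinas. By these counts the mutant retinas were all female, so sex was not balanced between the genotypes, and the tests had no term for sex. Without Wfs1-KO replicate 2 the 3 subunits had close log2 fold changes, -0.18 for Idh3a, -0.17 for Idh3b and -0.17 for Idh3g (SE 0.13, 0.15 and 0.16). With WT replicate 1 left out instead, they were -0.25, -0.05 and 0.12, so the closeness was not kept.

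The balance of these subunits does not depend on the scaling between libraries, but it can shift where a library has a trend with exon length. Idh3a (2580 bases of exon) is longer than Idh3b (1616 bases) and Idh3g (1331 bases). The ratio of Idh3b to Idh3g in RPKM was 1.24, 1.45 and 1.23 in WT and 1.30, 1.01 and 1.30 in Wfs1-KO retinas. The log2 ratio of Idh3a to the mean of the other subunits was -0.73, -0.36 and -0.47 in WT and -0.57, -0.97 and -0.51 in Wfs1-KO retinas. Wfs1-KO replicate 2 had the lowest value of all 6, and the other mutant retinas lay inside the WT range. WT replicate 1 had the next lowest. In these retinas alone the departure from the others fell with exon length (Spearman's rho -0.43 and -0.24 across all tested genes). The part of this trend in the balance was not tested. The mean was -0.52 ± 0.19 in WT and -0.68 ± 0.25 in Wfs1-KO (SD, n = 3 each), a difference below the spread in either genotype, and the difference of -0.16 became -0.02 without that retina.

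Ogdh and Dlst encode the decarboxylating and the succinyl-transferring component of the 2-oxoglutarate dehydrogenase complex. Ogdh had 238, 230 and 268 CPM in WT and 247, 192 and 257 CPM in Wfs1-KO retinas, a log2 fold change of -0.08 (SE 0.18). Dlst had 107, 99.3 and 97.2 CPM in WT and 89.7, 110 and 93.6 CPM in Wfs1-KO retinas, a log2 fold change of -0.05 (SE 0.16). Wfs1-KO replicate 2 was thus the lowest retina for Ogdh and the highest for Dlst. The ratio of Ogdh to Dlst in RPKM was between 1.38 and 1.71 in WT, 1.71 in Wfs1-KO replicates 1 and 3, and 1.09 in replicate 2. Ogdhl, the paralog of Ogdh known from brain, had 34.5 ± 3.25 RPKM in WT beside 55.2 ± 4.50 RPKM for Ogdh (SD, n = 3).

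Suclg1 encodes the alpha subunit that both forms of succinyl-CoA ligase share. It had 78.6, 74.3 and 57.3 CPM in WT and 65.1, 125 and 61.4 CPM in Wfs1-KO retinas. Its log2 fold change of 0.26 (SE 0.31) turned to -0.16 (SE 0.16) without Wfs1-KO replicate 2, whose level was 178% of the WT mean. Of its partners, Sucla2, the subunit of the ATP-forming enzyme, had 57.6 ± 7.60 RPKM and Suclg2, that of the GTP-forming enzyme, 2.07 ± 0.14 RPKM in WT (SD, n = 3). The ratio of Sucla2 to Suclg2 was between 22.6 and 33.7 in WT, 25.1 and 25.4 in Wfs1-KO replicates 1 and 3, and 13.8 in replicate 2.

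Fh1 and Mdh2 carry out the last steps, from fumarate to malate and from malate to oxaloacetate. Fh1 had 66.3, 55.7 and 56.9 CPM in WT and 57.9, 75.7 and 59.3 CPM in Wfs1-KO retinas, a log2 fold change of 0.11 (SE 0.18). Mdh2 had 274, 221 and 227 CPM in WT and 239, 372 and 227 CPM in Wfs1-KO retinas, a log2 fold change of 0.21 (SE 0.24). For both genes Wfs1-KO replicate 2 was the highest retina, and without it the log2 fold changes were -0.03 and -0.05 (SE 0.14 for each). The ratio of Mdh2 to Cs in RPKM was 2.96, 2.30 and 2.33 in WT and 2.61, 6.82 and 2.47 in Wfs1-KO retinas.

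**Figure D3:**
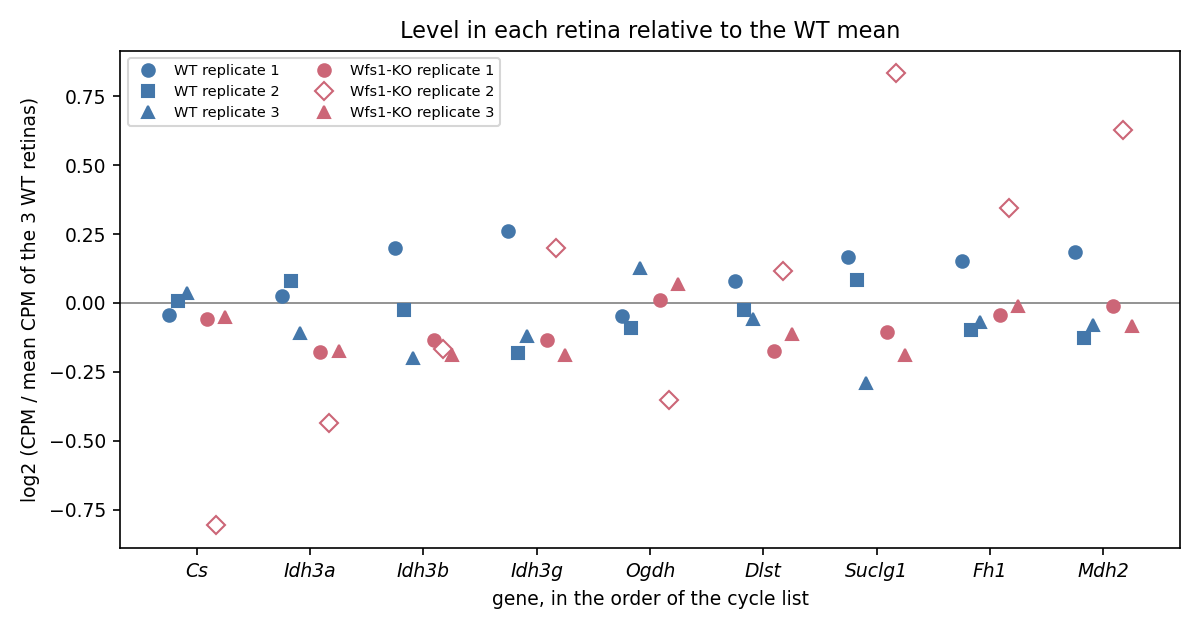
Level of each cycle gene in each retina as log2 of its CPM over the mean of the 3 WT retinas (blue, WT; red, Wfs1-KO). Wfs1-KO replicate 2 (open diamonds) is lowest for Cs, Idh3a and Ogdh and highest for Dlst, Suclg1, Fh1 and Mdh2, while the other mutant retinas lie close to the WT range.

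The cycle genes of Wfs1-KO replicate 2 thus departed in both directions. That retina was the highest of 6 for 4 genes and the lowest for 3. Its departure from the mean of the other 5 retinas, in log2 CPM, ran in part with exon length. It was 0.90 for Suclg1 (1519 bases of exon) and 0.65 for Mdh2 (1456 bases), but -0.37 for Ogdh (4449 bases). Idh3g, the shortest (1331 bases), was at 0.27. The genes between 2 and 3 kb lay on both sides, with -0.78 for Cs (2926 bases) and -0.36 for Idh3a (2580 bases) but 0.17 for Dlst (2764 bases) and 0.35 for Fh1 (2636 bases), and the shorter Idh3b (1616 bases) was at -0.10. Across the 9 genes Spearman's rho was -0.70, and across all 18547 tested genes it was -0.43, where genes share one library and are not independent. The median departure was 0.52 for tested genes with exons of 1 to 2 kb, 0.15 for those of 2 to 3 kb and -0.41 for those over 4 kb. After the trend of all genes was taken out, Cs in that retina lay at -0.71 and Idh3b at -0.57 relative to the mean of all 6 retinas. A like slope was seen in WT replicate 1, which among the 5 retinas without Wfs1-KO replicate 2 was the highest for 6 of the 9 cycle genes, with rho -0.88 across the 9 genes and -0.44 across all tested genes.

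**Figure D4:**
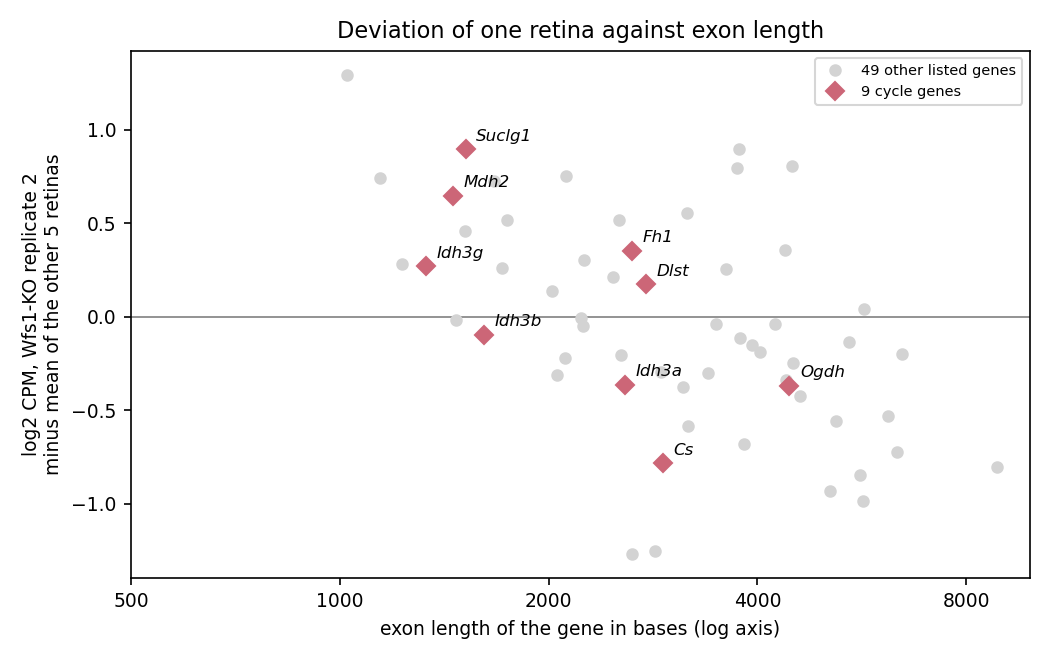
Departure of Wfs1-KO replicate 2 from the mean of the other 5 retinas (log2 CPM) against exon length in bases (log axis), for the 9 cycle genes (red) and 49 other listed genes (grey). Suclg1 and Mdh2, both short, lie above 0 and Ogdh, the longest, below 0 (rho -0.70 across the 9 genes). Idh3g, the shortest of the 9, lies above 0 at 0.27, while Idh3b, also short, lies below 0 at -0.10. Genes between 2 and 3 kb lie on both sides, with Cs the lowest of the 9.

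When the trend with exon length was taken out of each library before the same test, an alternative chosen after seeing the data, Suclg1 and Mdh2 had log2 fold changes of 0.03 and 0.01 (SE 0.16 and 0.12). Ogdh, Dlst and Fh1 stayed near 0, at -0.02, -0.07 and 0.07. Cs, Idh3a, Idh3b and Idh3g had -0.27, -0.29, -0.28 and -0.21 (SE 0.22, 0.16, 0.19 and 0.15). Again 0 of 9 passed, with adjusted p-values of 0.951 or more (edgeR's test). The part of RNA from the listed blood and pigment epithelium genes in these departures was not tested.

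The other genes of the pathway were taken from 4 hand-written lists, and in none of them did a gene pass the test. Of the 9 other cycle genes, 0 passed in either direction (edgeR, adjusted p), 0 had an unadjusted p under 0.05, and the median log2 fold change was -0.11 (-0.10 without Wfs1-KO replicate 2). Among the subunits of succinate dehydrogenase, Wfs1-KO replicate 2 had Sdhb (1142 bases of exon) at 163%, Sdhc (3171 bases) at 143% and Sdha (2900 bases) at 80.9% of the WT mean, so these did not follow the order of exon length. Sdhd, its membrane anchor, had 57.5, 54.4 and 51.8 CPM in WT and 46.0, 61.2 and 42.7 CPM in Wfs1-KO retinas. Its log2 fold change of -0.13 (SE 0.19) was -0.30 (SE 0.13) without that retina. In that fit Sdhd alone among the 18 cycle genes tested had an unadjusted p under 0.05 (adjusted p = 0.933, edgeR), against 5.19% of all genes tested.

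Of the 13 genes of pyruvate entry, which bring pyruvate into mitochondria and turn it into acetyl-CoA or oxaloacetate, 0 passed and 0 had an unadjusted p under 0.05, with a median of -0.04 in both fits. Mpc2, a subunit of the mitochondrial pyruvate carrier, had 72.5, 52.1 and 49.6 CPM in WT and 51.0, 134 and 48.8 CPM in Wfs1-KO retinas, again high in replicate 2 (log2 fold change 0.42, SE 0.41, and -0.23, SE 0.18, without it). Pdha1, of the same list, was low in that retina, with 78.0, 93.8 and 84.1 CPM in WT and 83.6, 35.8 and 89.8 CPM in Wfs1-KO retinas. Its log2 fold change was -0.29 (SE 0.34), and 0.02 (SE 0.13) without replicate 2. Of the 9 regulators of mitochondrial biogenesis 0 passed and 0 had an unadjusted p under 0.05, with a median of -0.05, or 0.06 without Wfs1-KO replicate 2. Esrrb, an estrogen-related receptor of rod cells, had 695, 597 and 666 CPM in WT and 761, 384 and 743 CPM in Wfs1-KO retinas (log2 fold change -0.05, SE 0.28, and 0.20, SE 0.12, without replicate 2).

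Of the 18 parallel enzymes and carriers, 0 passed and 1, Me3, had an unadjusted p under 0.05, against 2.81% of all tested genes (median -0.03, and -0.02 without Wfs1-KO replicate 2). Me3, a mitochondrial malic enzyme that makes pyruvate from malate, had 7.33, 7.46 and 7.66 CPM in WT and 9.57, 15.3 and 11.3 CPM in Wfs1-KO retinas. Every mutant retina lay above every WT retina. The log2 fold change was 0.69 (SE 0.23, adjusted p = 0.979, edgeR), and 0.47 (SE 0.18, adjusted p = 0.813) without Wfs1-KO replicate 2. Its relatives did not share one direction. The cytosolic Me1 had 146, 174 and 174 CPM in WT and 196, 209 and 190 CPM in Wfs1-KO retinas, while the mitochondrial Me2 had 44.7, 52.0 and 51.8 CPM in WT and 43.6, 19.1 and 42.0 CPM in Wfs1-KO retinas. Me1 and Me3 were higher and Me2 and Glud1, glutamate dehydrogenase, lower in every mutant retina than in every WT retina, against 5.01% of all tested genes higher and 3.94% lower, and none of these 4 passed the test. Without Wfs1-KO replicate 2 the log2 fold changes were 0.22 for Me1, -0.21 for Me2 and -0.14 for Glud1 (SE 0.13, 0.14 and 0.13).

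**Figure D5:**
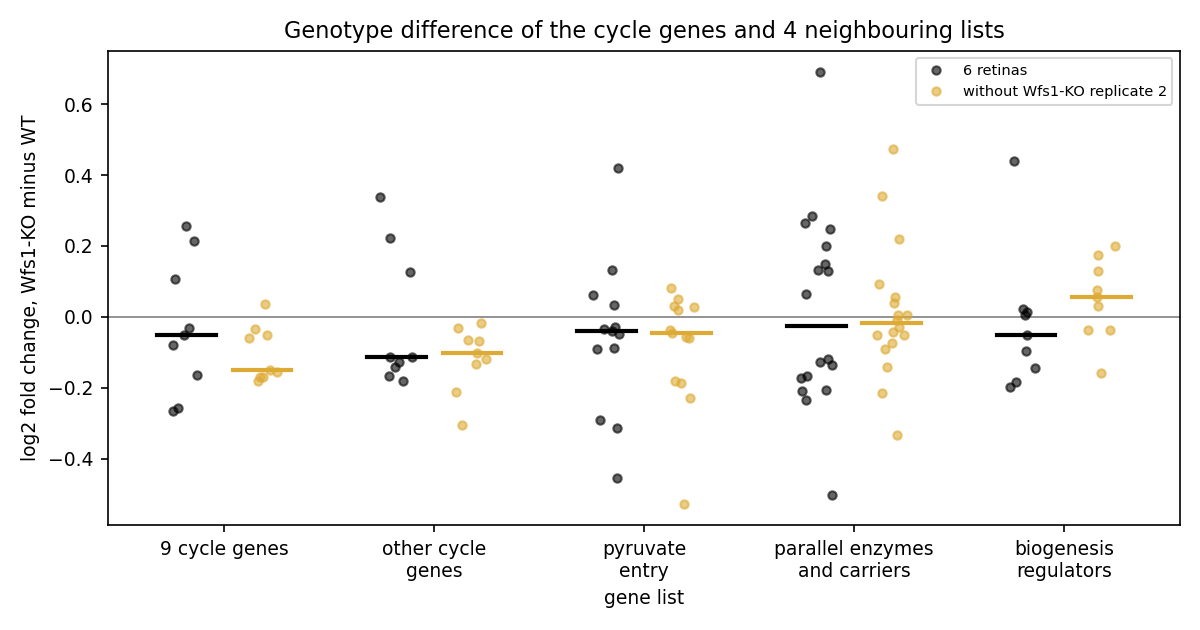
Log2 fold change (Wfs1-KO minus WT) of each gene in the 9 cycle genes and in 4 neighbouring lists, for all 6 retinas (black) and without Wfs1-KO replicate 2 (yellow), with bars at the medians. The medians of all lists lie between -0.15 and 0.06, and Me3 is the highest point among the parallel enzymes.

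Across the 6 retinas the cycle genes did not vary as one unit. Of their 36 pairs, 20 had a positive Pearson correlation of log2 CPM (median 0.15), and 24 (median 0.46) in the 5 retinas without Wfs1-KO replicate 2. Over 6 retinas the pair with the most similar pattern was Fh1 and Mdh2 (r = 0.98), and over 5 it was Idh3g and Mdh2 (r = 0.96). The most opposed over both was Ogdh and Suclg1 (r = -0.99 and -0.93). These are descriptions over libraries that share depth and length trends. The 5 genes whose pattern was most like the mean standardized profile of the 9, among 15097 other tested genes with at least 50 counts on average, were Atp5b (r = 0.99 over 6 retinas), the beta subunit of the ATP synthase, Stk25 (0.99), 2900011O08Rik (0.99), Rhot2 (0.98) and Slc35a2 (0.98). Atp5b had 1560, 1299 and 1302 CPM in WT and 1255, 1396 and 1249 CPM in Wfs1-KO retinas, with WT replicate 1 the highest. The mean profile of the 9 was also highest in that retina. These 5 are the top of 15097 correlations over 6 retinas, so their high r comes in part from the selection and was not tested.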

How the data were processed

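Per the labels, the authors trimmed reads with Trimmomatic 0.39, mapped them to mm10 with STAR 2.5.3a and counted them with featureCounts 1.6.4 (the methods name other versions of Trimmomatic and STAR), and the deposited values are their raw gene counts, not normalized, beside each gene's exon length. Strand and multimapping settings are not given in the sources used here. The column letters C and W were read as control (WT) and Wfs1-KO, and 2 further columns, which no label here names, were left out.

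The test was that of edgeR 4.0.16 under R 4.3.3, by quasi-likelihood on TMM-scaled libraries after filterByExpr, with a term for genotype alone, and adjusted by Benjamini-Hochberg over all tested genes. The standard error is the log2 fold change divided by the square root of F, and intervals use the total degrees of freedom. CPM and RPKM use TMM-scaled library sizes of the tested genes, and correlations use log2(CPM + 0.5). Alternatives used DESeq2 1.42.0 and limma 3.58.1. The procedure was also run on simulated counts with changes planted in some genes. These had no library that stood apart and no trend with exon length, so that run does not bear on either. Copies were searched with BLAST 2.17.0 against GENCODE M21 transcripts (at least 90% identity over 200 bases). Members and lists were chosen with earlier results of these data known. The text names the 9 cycle genes, listed pathway genes with an unadjusted p under 0.05 in either fit, and the 5 genes most like the 9. The other listed genes named were chosen after their values were seen. Of the marker lists not mentioned in the results, the summed CPM in WT and in Wfs1-KO replicates 1, 2 and 3 was 1027 to 1088 and 904, 1155 and 1018 for cones, 975 to 1039 and 1168, 850 and 1117 for bipolar cells, 4936 to 5259 and 4308, 3913 and 4636 for Mueller glia, 580 to 699 and 500, 745 and 572 for ganglion cells, and 1.24 to 1.45 and 2.55, 1.37 and 1.66 for lens.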

Additional observations from a re-analysis of the deposited data

How the results depend on the processing

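No cycle gene passed the threshold under any of the 15 alternatives. With 1 retina left out in turn, the difference in isocitrate dehydrogenase subunit balance (-0.16) ranged from -0.27 without WT replicate 1 to -0.02 without Wfs1-KO replicate 2. It thus rested largely on the latter retina. On counts not scaled by length it was -0.16, but a gene's length is the same in every retina, so that setting could hardly change it. Cs, Idh3a and Idh3b stayed below 0 in all 15. Leaving out 1 retina in turn gave log2 fold changes from -0.17 to 0.12 for Idh3g (above 0 without WT replicate 1, Wfs1-KO replicate 1 or Wfs1-KO replicate 3), -0.16 to 0.035 for Ogdh, -0.15 to 0.0042 for Dlst (above 0 without Wfs1-KO replicate 1), -0.16 to 0.43 for Suclg1, -0.033 to 0.19 for Fh1 and -0.052 to 0.34 for Mdh2. For Ogdh, Suclg1, Fh1 and Mdh2 the sign changed without Wfs1-KO replicate 2, and DESeq2 without that retina gave 0.035, -0.16, -0.034 and -0.053. The median of the 9 ranged from -0.15 without Wfs1-KO replicate 2 to 0.0042 without Wfs1-KO replicate 1.

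Over all genes 2 passed, against 9 without a low-count filter, 52 with DESeq2, 94 with DESeq2 without Wfs1-KO replicate 2, 6 with the exon-length trend removed, and 0 to 24 with 1 retina left out (24 without Wfs1-KO replicate 2, 0 without any one WT retina). The cause was not tested. With the replicate block 1 gene passed, no cycle gene did, and the median of the 9 was -0.05. Same-numbered retinas are different mice, and their departures from the genotype means correlated at -0.33, -0.17 and 0.17 across genes, so the numbers were not taken as pairs. Wfs1 passed with DESeq2 and without Wfs1-KO replicate 2. Me3 and Sdhd passed under none of the 15.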

Other observations

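Idh3a, the gene of the isocitrate dehydrogenase subunit with no overlap between genotypes, lies in a stretch of chromosome 9 where small p-values were frequent. Of the 228 tested genes within 10 Mb of it, 24 (10.5%) had an unadjusted p under 0.05 in edgeR's test, and of the 239 tested without Wfs1-KO replicate 2, 42 (17.6%) did. Around the other 8 cycle genes this share lay between 0.524% (Idh3b) and 4.07% (Dlst) with all 6 retinas, and between 2.06% (Fh1) and 8.05% (Dlst) without Wfs1-KO replicate 2. Over all tested genes it was 2.81% and 5.19%. The part of the position of Idh3a in its values was not tested.

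Nnt, the mitochondrial transhydrogenase that feeds NADPH formation from NADH and is known to differ between inbred mouse strains, had 17.3, 21.1 and 19.7 CPM in WT and 19.8, 15.1 and 18.2 CPM in Wfs1-KO retinas, with overlapping genotypes (log2 fold change -0.13, SE 0.19, and -0.03, SE 0.16, without Wfs1-KO replicate 2).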
